A study of Mus musculus with 6 samples.

Results

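The Bcl-2 family survival and death genes described here are the 10 genes Bcl2, Bcl2l1, Bcl2l2, Mcl1, Bax, Bak1, Bcl2l11, Bbc3, Hrk and Bid, picked by gene symbol from the 24060 genes of a read count table. All 10 had enough reads to enter the test, which covered 16449 genes. The RNA came from retinal ganglion cells (RGCs), the neurons whose axons form the optic nerve, purified from C57BL/6 mice by immunopanning, in which unwanted macrophages are removed first and the wanted cells are then caught on a dish coated with an antibody to CD90 (Thy1). One group was taken at embryonic day 18 (E18) and the other at postnatal day 5 (P5), with 3 samples each, and neither group carried a mutation or received a treatment. The labels number the samples 1, 3 and 4 at E18 and 6, 8 and 9 at P5. The sources used here do not say whether samples came from separate animals or cultures, so the p-values measure the spread between these samples, which may be technical.

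Programmed death of neurons runs largely through the outer membrane of the mitochondrion. The effectors Bax and Bak1 form pores there, which let cytochrome c out and start the caspase cascade, and the guardians Bcl2, Bcl2l1 (Bcl-xL), Bcl2l2 (Bcl-w) and Mcl1 hold the effectors in check. The BH3-only proteins Bcl2l11 (Bim), Bbc3 (Puma), Hrk and Bid bind guardians or activate effectors and so carry death signals to the membrane. In the mouse retina many RGCs die in the days around birth, and loss of Bax is known to spare RGCs both in that period and after optic nerve injury.

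The samples held 81213639 to 114512853 reads counted on genes. Levels are given in CPM, the reads of a gene scaled to a fixed total after normalization of the library sizes by TMM, and differences as log2 of E18 over P5 from edgeR's quasi-likelihood test, with Benjamini-Hochberg adjustment over all 16449 genes tested and a threshold of 0.05. Summed levels of 15 RGC marker genes ran from 10662 to 12238 CPM at E18 and from 10571 to 11724 CPM at P5, and the ranges overlapped. Of these 15 markers 4 were higher and 5 lower at E18, Thy1, the gene of the panning antigen, among the lower, at 247 ± 56.2 CPM against 553 ± 119.7 CPM (n = 3 each, SD), so the sum does not show that RGC content was equal. Summed amacrine cell markers (11 genes, 4 higher and 2 lower at E18) were lower at E18, with 1830 to 2036 CPM against 2373 to 2719 CPM. E18 replicates 1 and 3 stood apart from E18 replicate 4 in markers of dividing cells (14 genes, 9 higher at E18), which summed to 360 CPM and 150.4 CPM against 96.4 CPM, and in markers of retinal progenitors (12 genes, 6 higher), which summed to 308 CPM and 159.6 CPM against 45.4 CPM. At P5 these sums were 73.9 to 94.1 CPM and 26.4 to 39.8 CPM. Endothelial and pericyte markers (9 genes, 1 higher and 3 lower at E18) set the same samples apart, with 72.8 CPM and 64.6 CPM against 16.5 CPM, nearly all of it Kdr, and 14.6 to 17.9 CPM at P5. Oligodendrocyte markers (9 genes, 1 higher and 2 lower) summed to 90.7 to 91.5 CPM at E18 and 54.0 to 73.6 CPM at P5, without overlap. Photoreceptor markers (11 genes) stayed at or below 12.7 CPM and microglial markers (11 genes) at or below 5.34 CPM in every sample, and the red blood cell genes Hba-a1, Hbb-bs and Hbb-bt had no count. In bulk RNA, fewer cells of a type and less RNA per cell cannot be told apart.

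Of the 10 members, Mcl1 was higher at E18 and Bak1 was lower, and the other 8 did not pass the test. Across all genes tested, 43.4% passed, 20.8% higher and 22.5% lower at E18, beside 2 of 10 members, 1 in each direction. The 3 samples of one age lay entirely above those of the other for 4 members, Bcl2, Mcl1, Bax and Bak1, against 56.1% of all genes tested. The median size of the members' log2 difference, sign ignored, was 0.23, against 0.39 over all genes tested. Signed, the median was 0.21 over the members and 0.0047 over all genes, and 7 of the 10 members had a positive difference.

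**Figure D1:**
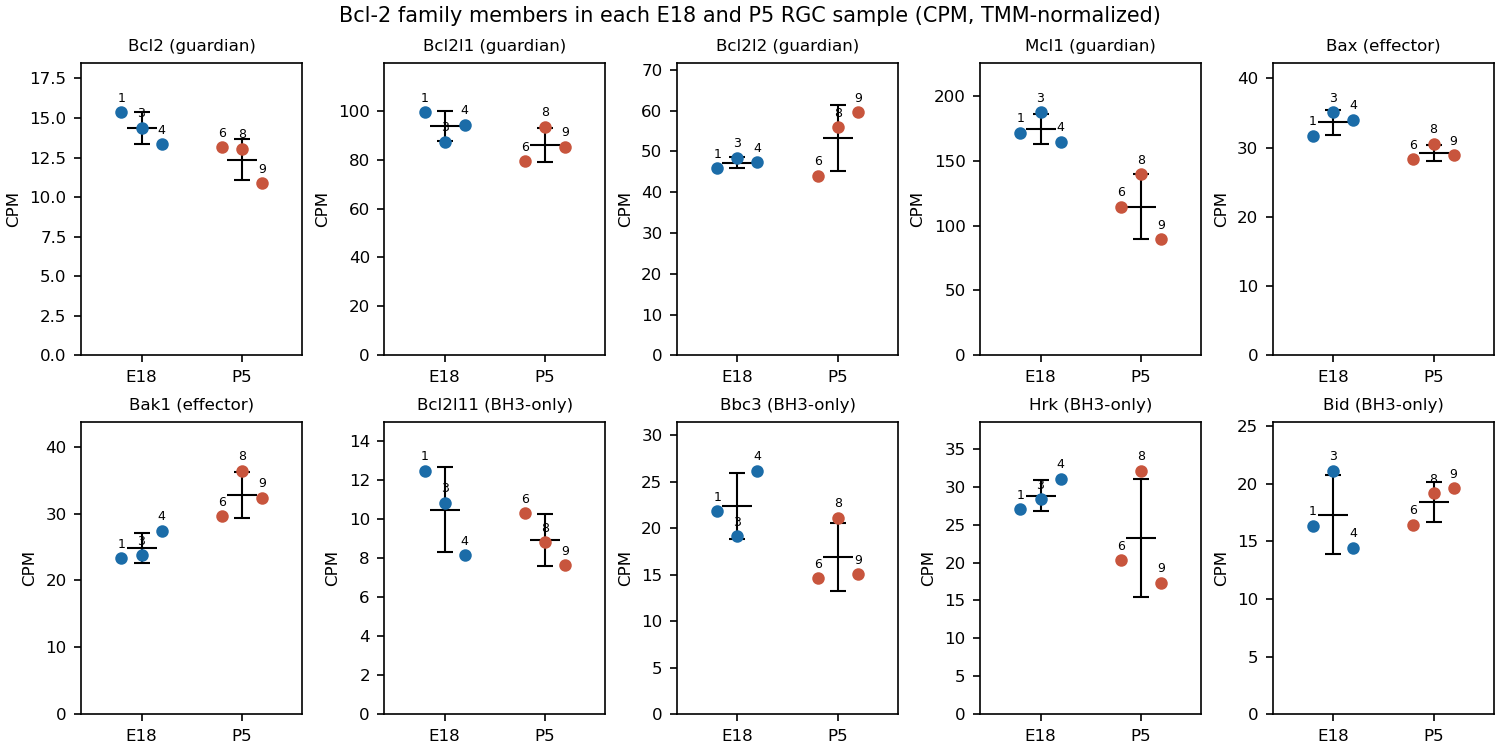
Level of each of the 10 members in every sample, in CPM on TMM-normalized library sizes, with 1 panel a gene and its own axis, points numbered by replicate and bars for each age's mean and SD (n = 3). The E18 and P5 points do not overlap for Bcl2, Mcl1, Bax and Bak1. P5 replicate 8 is the highest P5 point for 6 of the 10 members, a share that was not counted over all genes.

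Among the guardians, Mcl1, a short-lived protein whose supply depends on continued synthesis, showed the largest difference of all members. Mcl1 (ENSMUSG00000038612.16, mm10 chr3:95658788-95663176, plus strand) had 172 CPM, 187 CPM and 165 CPM in E18 replicates 1, 3 and 4, and 115 CPM, 139.7 CPM and 89.5 CPM in P5 replicates 6, 8 and 9. Every E18 sample lay above every P5 sample, and the P5 samples spread more widely than the E18 samples. The means were 175 ± 11.7 CPM at E18 and 115 ± 25.1 CPM at P5 (n = 3 each, SD), a log2 difference of 0.61 (SE 0.15, 95% interval 0.26 to 0.95) or 1.52-fold, with an adjusted p of 0.0124 in edgeR's quasi-likelihood test. The coefficient of variation was 6.71% at E18 and 21.9% at P5, where counting error alone gives 0.773% and 0.963%, so the spread between samples and not read depth set the error. Mcl1 kept its call in each of the 6 fits that left out 1 sample, with log2 differences of 0.46 to 0.76 and adjusted p of 0.00231 to 0.0487. With E18 replicate 4 as the lone E18 sample, assumed to vary like the others, the log2 difference was 0.53 with an adjusted p of 0.173.

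The sequence just upstream of Mcl1 is shown because Mcl1 was the guardian that passed the test, and because the study from which these samples come concerns Elk-1, a factor of the Ets family. The 250 bases before the RefSeq start, GRCm38.p6 chr3:95658471-95658720 on the plus strand, are printed with the Ets core CCGGAAG in capitals.
Mcl1: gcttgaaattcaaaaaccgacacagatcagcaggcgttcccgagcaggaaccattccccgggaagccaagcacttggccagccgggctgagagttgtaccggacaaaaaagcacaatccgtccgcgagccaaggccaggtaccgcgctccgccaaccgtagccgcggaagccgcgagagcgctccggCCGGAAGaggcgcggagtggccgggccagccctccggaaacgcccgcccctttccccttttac
The Ets core began 63 bases before the start. On either strand it was present in 6.91% of the 32851 mouse windows of the same length, and among the 15 windows of the 10 members it was also found in 1 window of Bcl2l11, on the reverse strand 105 bases before the start. A GC box (GGGCGG), a common promoter element, lay on the reverse strand of the Mcl1 window 20 bases before the start, and 32.7% of all windows held one. The SRF CArG box, searched as a pattern of letters, was held by 1.47% of all windows. The cyclic AMP response element TGACGTCA was held by 1.55%, and neither was in any of the 15 windows. A match is a run of letters and not a measured binding site.

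Bcl2l1, the guardian whose longer protein isoform keeps many adult neurons alive, did not pass the test. Bcl2l1 (ENSMUSG00000007659.18, chr2:152780668-152831728, minus strand) had 99.4 CPM, 87.3 CPM and 94.2 CPM at E18 and 79.4 CPM, 93.4 CPM and 85.3 CPM at P5. The ages overlapped through P5 replicate 8, which lay above E18 replicate 3. Its log2 difference was 0.12 (SE 0.097, 95% interval -0.10 to 0.34) with an adjusted p of 0.333 in edgeR's quasi-likelihood test. Reads were counted per gene, so the longer and the shorter isoform of Bcl2l1, which have opposite effects on survival, cannot be told apart.

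Bcl2, the founding member of the family, was a low guardian at both ages. Bcl2 (ENSMUSG00000057329.7, chr1:106538178-106714274, minus strand) had 15.4 CPM, 14.4 CPM and 13.3 CPM at E18 and 13.2 CPM, 13.1 CPM and 10.9 CPM at P5. All E18 samples lay above all P5 samples, but E18 replicate 4 and P5 replicate 6 were almost level. The log2 difference of 0.22 (SE 0.13, 95% interval -0.07 to 0.51) had an adjusted p of 0.196 in edgeR's quasi-likelihood test.

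Bcl2l2, a guardian found chiefly in neurons and testis, was the only guardian with a negative estimate. Bcl2l2 (ENSMUSG00000089682.10, chr14:54883377-54888234, plus strand) had 45.8 CPM, 48.4 CPM and 47.4 CPM at E18 and 44.1 CPM, 55.9 CPM and 59.6 CPM at P5. P5 replicate 6 lay below all E18 samples and the other P5 samples lay above them. E18 over P5 gave a log2 difference of -0.17 (SE 0.12, 95% interval -0.45 to 0.10, adjusted p 0.275, edgeR quasi-likelihood). Without P5 replicate 6 it was -0.31 with an adjusted p of 0.0397, so 1 sample decided this call.

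The make-up of the guardian pool differed with age. As a share of the summed level per kilobase of transcript of the 4 guardians, Mcl1 made up 45.7%, 49.9% and 45.7% at E18 and 40.1%, 40.9% and 31.8% at P5, with no overlap. Bcl2l1 made up 35.8% ± 2.53 at E18 and 40.3% ± 2.29 at P5, and Bcl2l2 12.4% ± 0.480 and 17.2% ± 3.03 (n = 3 each, SD), also with no overlap. Bcl2 held 4.67% and 4.93%, with overlap. Shares in a pool must sum to the whole, so a lower share of Mcl1 raises the others by arithmetic, and no test was made of them.

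**Figure D2:**
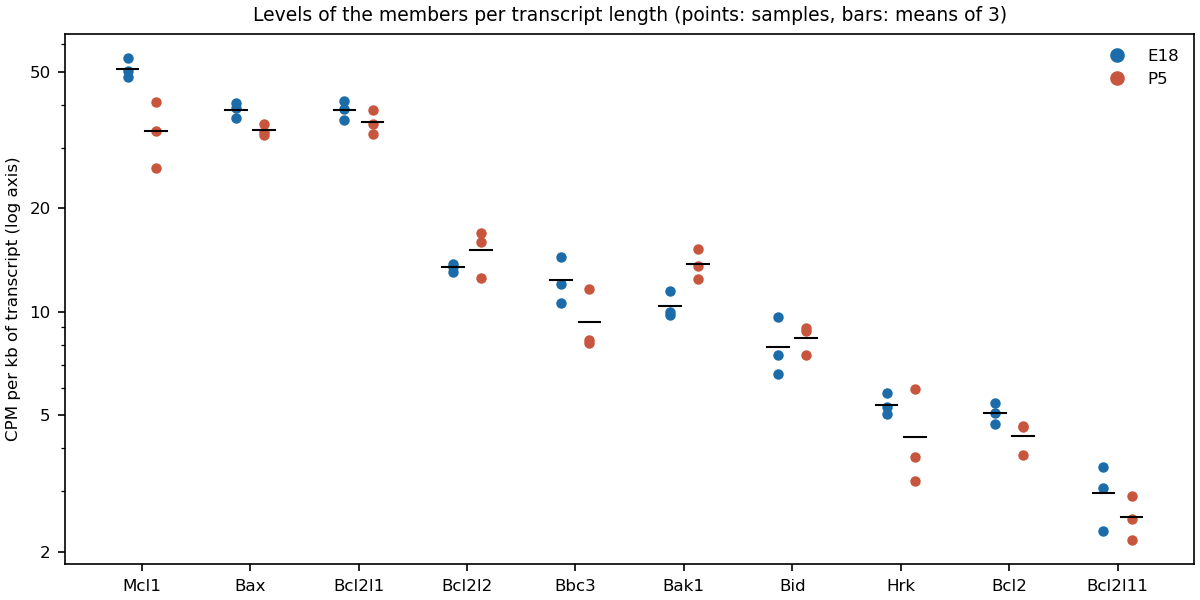
Level of each member as CPM per kilobase of transcript on a log axis at E18 and P5, with points for the 3 samples of each age and a mark for the mean. Mcl1, Bax and Bcl2l1 lie above the other 7 members at both ages, and Bcl2l11 has the lowest mean at both.

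Per kilobase of transcript, the members fell into a high and a lower tier. At E18 Mcl1 was highest, at 51.1 ± 3.43 CPM per kilobase, followed by Bax at 38.8 ± 2.02 and Bcl2l1 at 38.7 ± 2.52, which overlapped each other and not Mcl1. The next were Bcl2l2 at 13.5, Bbc3 at 12.4 and Bak1 at 10.4 CPM per kilobase, each overlapping its neighbour. Bid at 7.90, Hrk at 5.35, Bcl2 at 5.06 and Bcl2l11 at 2.96 CPM per kilobase followed, and of these neighbours only Hrk and Bcl2 overlapped. At P5 Bcl2l1 at 35.6 ± 2.90, Bax at 33.7 ± 1.33 and Mcl1 at 33.5 ± 7.35 CPM per kilobase overlapped, so no highest member could be told. Bcl2l2 at 15.2 and Bak1 at 13.7 CPM per kilobase overlapped below them, then Bbc3 at 9.34 and Bid at 8.40, then Bcl2 at 4.35 and Hrk at 4.32, and Bcl2l11 at 2.52 was again lowest. With the union of all annotated exons as the length, Mcl1 was highest at P5 too, at 33.5 CPM per kilobase against 18.8 for Bcl2l1. Bax lay above Bak1 at both ages, and by the exon union the levels were closer, at 21.3 and 10.3 CPM per kilobase at E18 and 18.6 and 13.6 at P5.

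Of the effectors, Bak1 was lower at E18 and Bax did not pass the test. Bak1 (ENSMUSG00000057789.14, chr17:27019810-27029009, minus strand) had 23.3 CPM, 23.8 CPM and 27.5 CPM at E18 and 29.6 CPM, 36.4 CPM and 32.3 CPM at P5. Every P5 sample lay above every E18 sample. The means were 24.9 ± 2.26 CPM at E18 and 32.8 ± 3.42 CPM at P5 (n = 3 each, SD), a log2 difference of -0.40 (SE 0.12, 95% interval -0.67 to -0.13) or 1.32-fold higher at P5, with an adjusted p of 0.0245 in edgeR's quasi-likelihood test. The call held in 4 of the 6 fits that left out 1 sample. It was lost without E18 replicate 1, where the log2 difference was -0.35 with an adjusted p of 0.102, and without E18 replicate 3, where it was -0.36 with an adjusted p of 0.100.

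Exons of Bak1 share 614 bases, 25.5% of its exon length in GENCODE M21, with Ggnbp1 on the opposite strand. Whether the counting used strand is not given in the sources used here, so reads in those bases cannot be assigned with certainty. Ggnbp1 itself was counted at 1.93 ± 0.107 CPM at E18 and 1.31 ± 0.241 CPM at P5 (log2 difference 0.55, adjusted p 0.0740, edgeR quasi-likelihood), far below Bak1 and with the opposite sign. The summed amacrine markers were higher at P5, as was Bak1, and their part in the difference was not tested. The window upstream of Bak1 held none of the 5 motifs searched.

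Bax moves from the cytosol to the mitochondrion when activated and is the effector known to be needed for RGC death. Its difference between the ages did not pass the test. Bax (ENSMUSG00000003873.11, chr7:45461697-45466898, minus strand) had 31.7 CPM, 35.1 CPM and 34.0 CPM at E18 and 28.3 CPM, 30.5 CPM and 28.9 CPM at P5. The ages did not overlap, with E18 above P5, and both spread little, with coefficients of variation of 5.22% and 3.95%. The log2 difference was 0.20 (SE 0.095, 95% interval -0.02 to 0.42) with an adjusted p of 0.118 in edgeR's quasi-likelihood test, and the interval reached 1.33-fold at its upper end. In GENCODE M21, exons of Bax, Bcl2l2 and Bcl2 share 12.2%, 13.3% and 6.09% of their length with other gene models, Gm45808, Gm20521 and D630008O14Rik, which were not among the genes counted.

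Ratios of reads within a sample do not depend on the normalization between samples, and they were not adjusted for length. Bax over Mcl1 was 0.185, 0.187 and 0.207 at E18 and 0.247, 0.219 and 0.323 at P5. All P5 samples lay above all E18 samples, and the P5 mean was 1.36 times the E18 mean. Bax over Bcl2l2 ran the other way, with 0.692, 0.725 and 0.718 at E18 and 0.642, 0.547 and 0.485 at P5. Bax over Bcl2, the ratio most often quoted for this family, was 2.06, 2.44 and 2.55 at E18 and 2.15, 2.34 and 2.66 at P5, and the ages overlapped. Bax over Bcl2l1 was 0.361 ± 0.0419 at E18 and 0.341 ± 0.0148 at P5 (n = 3 each, SD) and also overlapped. The direction of a Bax ratio with age therefore depended on the guardian set beneath it. With 3 samples a side an exact permutation test cannot reach 0.05, so none was made on the ratios.

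The ratios Bak1 over Mcl1, Bak1 over Bcl2l1 and Bax over Bak1 were chosen after the values were seen. Bak1 over Mcl1, a guardian known to bind Bak1, was 0.136, 0.127 and 0.167 at E18 and 0.258, 0.261 and 0.362 at P5. The P5 samples lay above the E18 samples, and the P5 mean of 0.294 ± 0.0589 was 2.05 times the E18 mean of 0.143 ± 0.0209 (n = 3 each, SD). Mcl1 was higher and Bak1 lower in every E18 sample, so this separation followed from their levels and adds nothing to their calls. Bak1 over Bcl2l1, also a partner of Bak1, was 0.266 ± 0.0289 at E18 and 0.381 ± 0.00864 at P5, without overlap. Bax over Bak1, both effectors, was 1.36, 1.48 and 1.24 at E18 and 0.956, 0.839 and 0.894 at P5. Bax was higher and Bak1 lower in every E18 sample, so this separation too followed from their levels. Without adjustment for length, reads of Bax outnumbered those of Bak1 in each E18 sample and not in any P5 sample. Per kilobase of transcript Bax lay above Bak1 at both ages, at 38.8 against 10.4 CPM at E18 and 33.7 against 13.7 CPM at P5.

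**Figure D3:**
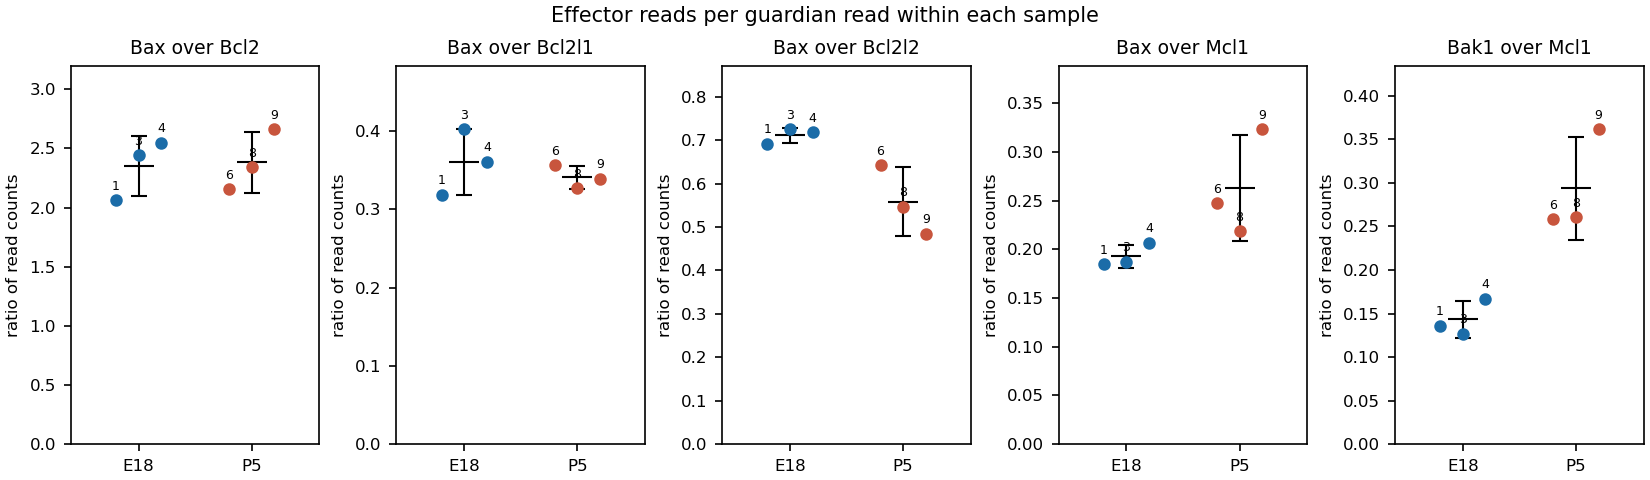
Ratios of read counts within each sample, not adjusted for gene length, with 1 panel a ratio on a linear axis from 0, points numbered by replicate and bars for each age's mean and SD (n = 3). Bax over Mcl1 and Bak1 over Mcl1 lie higher at P5, Bax over Bcl2l2 lies lower at P5, and Bax over Bcl2 and Bax over Bcl2l1 overlap.

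None of the 4 BH3-only members passed edgeR's quasi-likelihood test, and none passed by DESeq2, edgeR's likelihood ratio test, edgeR's exact test or limma-voom. At an unadjusted p under 0.05 there was 1, Bbc3. Their log2 differences ran from -0.09 to 0.40, with a median of 0.27.

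Bbc3 encodes Puma, which binds all guardians and is a known target of p53. Bbc3 (ENSMUSG00000002083.13, chr7:16308393-16318205, plus strand) had 21.9 CPM, 19.2 CPM and 26.2 CPM at E18 and 14.7 CPM, 21.1 CPM and 15.0 CPM at P5. P5 replicate 8 lay within the E18 range, and the other P5 samples lay below it. The log2 difference was 0.40 (SE 0.18, 95% interval 0.00 to 0.80), with an unadjusted p of 0.0482 and an adjusted p of 0.0933 in edgeR's quasi-likelihood test. Without P5 replicate 8 it was 0.57 with an adjusted p of 0.0117.

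Hrk, a BH3-only gene expressed mainly in neurons and induced through the JNK pathway when trophic support is withdrawn, showed the same pattern. Hrk (ENSMUSG00000046607.6, chr5:118164648-118189478, plus strand) had 27.0 CPM, 28.3 CPM and 31.1 CPM at E18 and 20.3 CPM, 32.1 CPM and 17.3 CPM at P5. P5 replicate 8 was the highest of all 6 samples and the other P5 samples were the lowest. The coefficient of variation was 33.6% at P5 and 7.20% at E18. The log2 difference was 0.31 (SE 0.21, 95% interval -0.16 to 0.78, adjusted p 0.258, edgeR quasi-likelihood), and without P5 replicate 8 it was 0.60 with an adjusted p of 0.00337.

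Bcl2l11 encodes Bim, an activator of Bax and Bak1 that binds all guardians, and it had the lowest level per kilobase of the members. Bcl2l11 (ENSMUSG00000027381.16, chr2:128126038-128162547, plus strand) had 12.5 CPM, 10.8 CPM and 8.14 CPM at E18 and 10.3 CPM, 8.82 CPM and 7.64 CPM at P5. The ages overlapped, and E18 replicate 4 lay below P5 replicates 6 and 8. The log2 difference was 0.23 (SE 0.19, 95% interval -0.19 to 0.66, adjusted p 0.341, edgeR quasi-likelihood). With E18 replicate 4 alone at E18 it was -0.12 with an adjusted p of 0.833. The E18 samples ranked alike in Bcl2l11 and in the summed markers of dividing cells and of progenitors, with replicate 1 highest and replicate 4 lowest. Bcl2 and Trp53, the gene of p53, had the same order of E18 samples. The part of those cells in the values of these genes was not tested.

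Bid, which is cut by caspase 8 to link death receptors to the mitochondrion, had the smallest difference in size of all members. Bid (ENSMUSG00000004446.12, chr6:120891930-120916853, minus strand) had 16.3 CPM, 21.1 CPM and 14.4 CPM at E18 and 16.4 CPM, 19.2 CPM and 19.6 CPM at P5, with the P5 samples inside the E18 range. Its log2 difference was -0.09 (SE 0.16, 95% interval -0.44 to 0.27, adjusted p 0.676, edgeR quasi-likelihood) and turned to 0.03 without E18 replicate 4. Exons of Bid share 628 bases, 17.7% of its exon length, with Bcl2l13 on the opposite strand. Bcl2l13 was counted at 48.4 ± 7.33 CPM at E18 and 36.8 ± 0.662 CPM at P5 (n = 3 each, SD), above Bid, so the Bid level is uncertain.

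**Figure D4:**
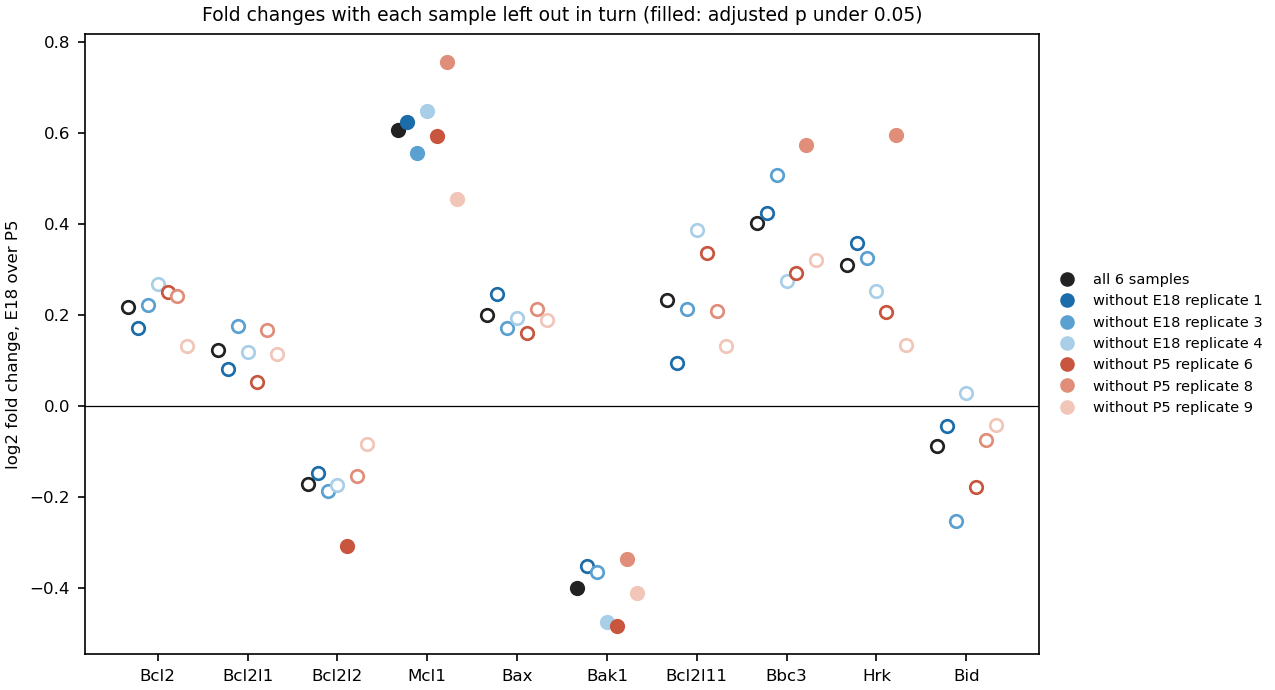
Log2 difference of E18 over P5 for each member with all 6 samples and in each of the 6 fits that left out 1 sample, with filled marks where the adjusted p was under 0.05. Mcl1 stays called in all 6 fits, Bak1 in 4 of them, and Bbc3 and Hrk are called only in the fit without P5 replicate 8, and Bcl2l2 only in that without P5 replicate 6.

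P5 replicate 8 was the highest P5 sample for 6 of the 10 members. How often it was highest over all genes was not counted, so this is not read as a trait of the members. Against the mean of the other P5 samples, P5 replicate 8 was 1.71 times as high for Hrk and 1.42 times for Bbc3. For Mcl1 it was 1.37 times and for Bak1 1.18 times as high. Of the 15 RGC markers the same sample was the highest P5 sample for 5 (Pou4f1, Pou4f2, Pou4f3, Isl1 and Tubb3) and the lowest for 7 (Sncg, Nefl, Nefm, Nefh, Thy1, Slc17a6 and Elavl4). Whether this bears on its Hrk and Bbc3 values was not tested. Without it, 4 members passed the test (Mcl1, Bak1, Bbc3 and Hrk) in place of 2, beside 52.5% of all genes tested in that fit, against 43.4% with all samples.

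Immediate-early genes, which dissociation and handling of cells can induce within minutes, were looked up after the values were seen. Of Fos, Egr1, Junb, Atf3, Ier2 and Dusp1, 5 of 6 were higher at E18, all but Fos, beside 20.8% of all genes tested. Their summed levels were 263 CPM, 200.5 CPM and 244 CPM at E18 and 192 CPM, 178 CPM and 111 CPM at P5. Mcl1 is itself known as an early-response gene, and Mcl1 and this sum both lay higher in every E18 sample. Within an age their orders differed. Mcl1 was highest in E18 replicate 3, where the sum was lowest. At P5 Mcl1 was highest in replicate 8 and the sum in replicate 6, and both were lowest in replicate 9. The part of the immediate-early genes in the Mcl1 difference was not tested.

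Stretches around a FOXO site (GTAAACA) are shown for Bcl2l11 and Bbc3 because FOXO factors are known to switch on both genes and because these were the members with that site in a window. The site is in capitals, and for Bbc3 it lies on the reverse strand. The Bcl2l11 stretch is GRCm38.p6 chr2:128125801-128125827 and the Bbc3 stretch chr7:16310084-16310110, both printed on the plus strand, with the site 227 and 167 bases before a RefSeq start.
Bcl2l11: agacactaggGTAAACAcgccggggtg
Bbc3: ctggcgggttTGTTTACaaacaatggg
The site was in 3.17% of all windows on either strand. Bcl2l11 has 2 RefSeq windows and Bbc3 has 3, and each gene held the site in 1 of them. The Bbc3 stretch lies inside the gene as GENCODE M21 draws it, downstream of its first start. Foxo3, named after its value was seen, was at 31.1 ± 2.34 CPM at E18 and 20.01 ± 1.87 CPM at P5 (n = 3 each, SD), higher at E18 by 0.64 on the log2 scale with an adjusted p of 0.00293 in edgeR's quasi-likelihood test, while Bcl2l11 and Bbc3 did not pass it.

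Of 15 other genes of the family or related to it, 10 had enough reads to test. Bcl2l13, Bnip3l, Bcl2l15 and Bik, 4 of the 10, were higher at E18 and the other 6 did not pass. Over all genes tested, 20.8% were higher and 22.5% lower at E18. The median log2 difference over the 10 was 0.35. Bnip3l (Nix), a receptor that marks mitochondria for autophagy, was the most abundant of the 4, at 211 ± 8.26 CPM at E18 and 169.7 ± 4.00 CPM at P5 (n = 3 each, SD), a log2 difference of 0.31 with an adjusted p of 0.0136 in edgeR's quasi-likelihood test. Bcl2l13, another mitophagy receptor, was higher at E18 by 0.39 with an adjusted p of 0.0284. Bcl2l15 and Bik, a BH3-only gene, were at the edge of detection, with 56, 72 and 86 reads of Bcl2l15 at E18 against 46, 37 and 23 at P5, and 29, 35 and 16 reads of Bik against 6, 10 and 14. Their log2 differences were 0.99 (adjusted p 0.0457) and 1.38 (adjusted p 0.0335) in edgeR's quasi-likelihood test. Leaving out 1 sample brought the count down to between 0 and 3, and none of the 4 was called in every such fit: without E18 replicate 3 all 4 calls were lost, and without E18 replicate 1 only Bnip3l was left.

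Among those that did not pass, Bad, a BH3-only gene controlled by survival kinases, had 19.9 ± 1.55 CPM at E18 and 20.4 ± 2.15 CPM at P5 (n = 3 each, SD), and its exons overlap those of Gpr137. Bok, an effector-like gene, had a log2 difference of -0.23 (adjusted p 0.311), Bmf, a BH3-only gene tied to the cytoskeleton, 0.30 (adjusted p 0.119), Bnip3, a relative of Bnip3l, 0.26 (adjusted p 0.341) and Bcl2l12 0.65 (adjusted p 0.109), all by edgeR's quasi-likelihood test. Pmaip1 (Noxa), a BH3-only gene that acts on Mcl1, had 65, 52 and 59 reads at E18 and 31, 26 and 4 at P5. Its log2 difference of 1.53 had an adjusted p of 0.0602 in edgeR's quasi-likelihood test, and it passed by edgeR's likelihood ratio test, edgeR's exact test and limma-voom. Bcl2a1a, Bcl2a1b, Bcl2a1d, Bcl2l10 and Bcl2l14 were not tested, with at most 1, 2, 2, 6 and 19 reads in any sample.

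**Figure D5:**
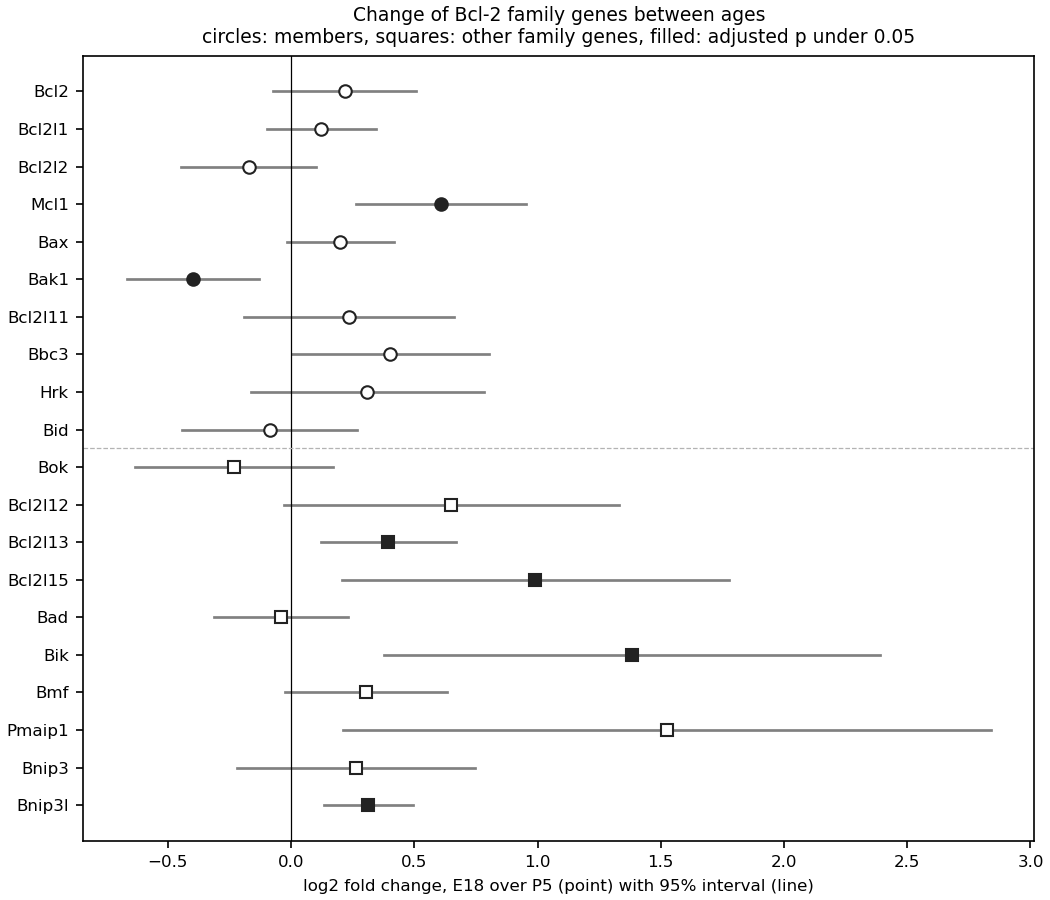
Log2 difference of E18 over P5 from edgeR's quasi-likelihood fit, with lines for the 95% interval, circles for the 10 members, squares for the 10 other family genes tested and filled marks where the adjusted p was under 0.05. Mcl1 at 0.61 and Bak1 at -0.40 are the filled circles, and the intervals of Bik and Pmaip1, with few reads, are the widest.

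Downstream of the mitochondrion, 3 of the 14 apoptosome and caspase genes tested were higher at E18 and 3 were lower. The shares over all genes tested were 20.8% and 22.5%, and the median log2 difference of the 14 was 0.03. Xiap, an inhibitor of caspases, was lower at E18, at 105 ± 4.81 CPM against 185 ± 17.7 CPM (n = 3 each, SD, log2 difference -0.82, adjusted p 0.000581, edgeR quasi-likelihood). Cycs, which encodes cytochrome c, was lower at E18 by 0.55 on the log2 scale, with an adjusted p of 0.00428. Casp2, an initiator caspase, was higher at E18, at 63.0 ± 2.72 CPM against 31.2 ± 10.7 CPM (n = 3 each, SD, log2 difference 1.01, adjusted p 0.00571, edgeR quasi-likelihood). The other genes higher at E18 were Casp6, an effector caspase tied to axon breakdown, and Birc2, a relative of Xiap, with a log2 difference of 0.32 and an adjusted p of 0.0294. Birc2 was called in 2 of the 6 fits that left out 1 sample and was lost without P5 replicate 9 and without each E18 sample in turn, with adjusted p of 0.0690 to 0.0922, whereas the calls of Xiap, Cycs, Casp2 and Casp6 held in all 6. Apaf1 and Casp9, which form the apoptosome and were named after their values were seen, had log2 differences of 0.20 and 0.19 and did not pass.

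Upstream of the BH3-only genes, 8 of the 15 factors and kinases tested were higher at E18 and 2 were lower. The shares over all genes tested were 20.8% and 22.5%, and the median log2 difference of the 15 was 0.54. Ddit3 (Chop), a factor of the endoplasmic reticulum stress response that can raise Bim and Puma, had 24.1 CPM, 23.8 CPM and 22.7 CPM at E18 and 11.1 CPM, 9.43 CPM and 10.2 CPM at P5, a log2 difference of 1.198 (adjusted p 0.000237, edgeR quasi-likelihood). Jun, the JNK target that drives Hrk and Bim, was at 153 ± 23.8 CPM and 67.5 ± 26.6 CPM (n = 3 each, SD, log2 difference 1.19, adjusted p 0.00607, edgeR quasi-likelihood). Atf4, which acts before Ddit3, was higher at E18 by 0.86 with an adjusted p of 0.000749. Mapk9 and Mapk10, which encode JNK2 and JNK3, were lower at E18, with log2 differences of -0.83 (adjusted p 0.000705) and -0.51 (adjusted p 0.00301) in edgeR's quasi-likelihood test. Mapk8, which encodes JNK1, and Map3k13, a kinase upstream of JNK, both named after their values were seen, were higher at E18, with log2 differences of 0.33 (adjusted p 0.0288) and 0.54 (adjusted p 0.00724) in the same test, so the JNK genes did not share a direction. The call of Mapk8 was lost without E18 replicate 3, E18 replicate 4 and P5 replicate 9, with adjusted p of 0.0706 to 0.108. Trp53, also named after its value was seen, was at 10.2 ± 1.295 CPM and 5.97 ± 0.147 CPM (n = 3 each, SD, log2 difference 0.77, adjusted p 0.00363, edgeR quasi-likelihood). The calls of Ddit3, Jun, Atf4, Mapk9, Mapk10, Map3k13 and Trp53 held in all 6 fits that left out 1 sample.

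Of 7 genes that set how long Mcl1 and Bim proteins last, 2 were higher at E18, beside 20.8% of all genes tested. The median log2 difference of the 7 was 0.11. The 2 higher genes were March5, a ubiquitin ligase of the mitochondrial surface, at 0.34 (adjusted p 0.0230), and Csnk1d, a kinase, at 0.49 (adjusted p 0.0225). Both calls were fragile: leaving out 1 sample ended that of March5 in all fits but the one without P5 replicate 8, with adjusted p up to 0.0903, and that of Csnk1d without E18 replicate 3, E18 replicate 4, P5 replicate 6 and P5 replicate 9, with adjusted p up to 0.0867.

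Of 7 channel and fission genes of the outer membrane, 3 were lower at E18, beside 22.5% of all genes tested. The other 4 did not pass, and the median log2 difference of the 7 was -0.27. Vdac3 and Vdac1, which encode pore proteins, had log2 differences of -0.46 (adjusted p 0.00684) and -0.43 (adjusted p 0.00807) in edgeR's quasi-likelihood test. Dnm1l (Drp1), the fission enzyme, had -0.40 (adjusted p 0.00560) in the same test. All of these calls held in each fit that left out 1 sample.

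Of 12 Bax inhibitor (TMBIM) genes and other survival partners, 1 was higher and 5 lower at E18, beside 20.8% and 22.5% of genes tested. The median log2 difference of the 12 was -0.32. Faim2 (Lifeguard), a neuronal inhibitor of Fas signalling, had 3.69 CPM, 2.94 CPM and 4.66 CPM at E18 and 14.01 CPM, 11.5 CPM and 18.8 CPM at P5. Its log2 difference of -1.97 (adjusted p 0.000536, edgeR quasi-likelihood) was the largest in size on this list. Ghitm, an inner membrane relative of Bax inhibitor, had -0.54 (adjusted p 0.00838) and Tmbim4 -0.35 (adjusted p 0.0194) in the same fit. Bag6, a chaperone partner, was the gene higher at E18, at 235 ± 16.4 CPM against 162 ± 8.70 CPM (n = 3 each, SD, log2 difference 0.53, adjusted p 0.00239, edgeR quasi-likelihood). The call of Tmbim4 was lost without each of the 3 E18 samples in turn, with adjusted p of 0.0658 to 0.0868, and the calls of Faim2, Ghitm and Bag6 held throughout. The other genes lower at E18, Tmbim6 and Bag4, were called in 1 and 4 of the 6 fits that left out 1 sample. Without E18 replicate 1, and also without E18 replicate 3, the number of lower genes fell to 2. Over the 5 lists of steps before and after the family, 14 of 55 genes were higher and 13 were lower at E18, which is 27 of 55 against the 43.4% of all genes tested.

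The genes whose profile over the 6 samples lay nearest to that of a member were found by the root mean square difference of log2 CPM after each gene was centred on its own mean, among 9724 genes that averaged 10 CPM or more. With 6 samples and so many genes, close matches are plentiful, and nothing about shared function follows from them. The nearest to Mcl1 were Lrrc75a at 0.0256, Rsbn1l at 0.0263 and Smad4 at 0.0292, where Mcl1 itself had an SD of 0.40 on the log2 scale. The nearest to Bak1 were Ttl, which adds tyrosine to tubulin, at 0.0230, Kif5a, a motor of axonal transport, at 0.0394, and Sdc3, a neuronal proteoglycan, at 0.0412. For the other guardians they were Polr2k, Med28 and Elavl1 (Bcl2), Plekha7, Rbm42 and Sap130 (Bcl2l1) and Pip5k1c, Mrps34 and Cpxm1 (Bcl2l2), and for Bax they were Ube2s, Sec23ip and Ccdc137. For the BH3-only members they were Xkr7, Fam171a2 and Tmem198 (Bbc3), Fam65b, Elovl2 and Slc25a51 (Hrk), Tipin, Pvrl3 and Nedd1 (Bcl2l11, among 9725 genes) and Pik3c2a, Ttbk2 and A330076H08Rik (Bid). No member was among the 3 nearest to another member.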

How the data were processed

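RNA-seq libraries of immunopanned RGCs (3 from E18, 3 from P5) were sequenced as 100-base pairs. Per the labels and the methods, reads were basecalled with CASAVA 1.8.2, aligned to mm10 with STAR and counted on RefSeq genes with HT-seq, and the deposited table holds the raw counts per gene. Its columns of the authors' own comparison were not used. The labels name polyA RNA, whereas the protocol names ribosomal RNA depletion. One E18 column name carries the numbers 1, 2 and 5. Groups came from the labels. Genes passing edgeR's filterByExpr were tested with edgeR 4.0.16 (TMM, quasi-likelihood) in R 4.3.3. DESeq2 1.42.0, limma 3.58.1 (voom), other edgeR tests, scalings and filters and leaving out each sample were the alternatives. Replicates differed by more than counting noise (chi-square per degree of freedom 26.0 to 121), so none was merged. Named genes were all members, all other family genes, up to 3 rises and 3 falls past the threshold with at least 5 CPM in each further list, and each member's 3 nearest profiles. The members, lists and motifs were chosen with earlier results of these data known. Lengths came from RefSeq transcripts, positions from GENCODE M21 and sequences from RefSeq (GRCm38.p6), which matched all 10 members. The scripts were tested on simulated data. Some genes of the lists are not reported here.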

Additional observations from a re-analysis of the deposited data

How the results depend on the processing

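Under 8 other tests, scalings and filters Mcl1 (log2 difference 0.58 to 0.63, adjusted p 0.000849 to 0.0151) and Bak1 (-0.43 to -0.39, adjusted p 0.00655 to 0.0283) stayed called and no other member was. Leaving out 1 sample gave 0.46 to 0.76 for Mcl1, -0.48 to -0.34 for Bak1, 0.28 to 0.57 for Bbc3, 0.13 to 0.60 for Hrk, -0.31 to -0.084 for Bcl2l2 and -0.25 to 0.028 for Bid, which reversed to 0.028 without E18 replicate 4. It gave 1 to 4 called members, 0 to 3 called genes of the other family list and 4575 to 8796 called genes in all, against 7135 with all samples, fewest without E18 replicate 3. The other family list had 2 called genes by DESeq2 and 2 under the filter of at least 1 CPM in 3 samples, where 6 were tested in place of 10, against 4. With E18 replicate 4 alone at E18, an alternative added after seeing the data, Mcl1 was at 0.53, Bak1 at -0.25 and Bcl2l11 reversed to -0.12, and 0 members, 0 other family genes, 8 genes of the further lists and 1633 genes in all were called from fewer samples. By exon union length Mcl1 took position 1 at P5 in place of 3. Other causes were not tested. No paired analysis was possible because the ages share no replicate number. With 3 samples an age, the spread between samples and not depth limited the members' intervals.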
